A study of Homo sapiens with 6 samples.

Results

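The IL-6 family cytokine pathway was examined gene by gene in NCI-H460 cells, a human large cell lung carcinoma line that the labels call a lung adenocarcinoma line. The 10 genes were taken by name from the expression table, which lists 58825 genes: the receptor genes LIFR, IL6ST, OSMR, IL6R and IL11RA, the cytokine genes LIF, IL6 and CLCF1, and the intracellular genes SOCS3 and STAT3. LIFR was selected on its counts and FPKM in this same comparison and the others were added as its pathway partners, so the differences are given as a description. RNA-seq had been done on 3 libraries of cells infected with lentivirus carrying a control hairpin (NC-shRNA, which the labels give as directed against GFP) and on 3 libraries of cells infected with lentivirus carrying a hairpin against PRMT5 (PRMT5-shRNA). PRMT5 is the main enzyme that places symmetric dimethyl marks on arginines of histones and other proteins. Both groups were therefore infected and carried a hairpin, neither group was an uninfected culture, and the labels do not say which of the designed PRMT5 hairpins was used. The study's text calls the libraries biological replicates, while nothing says that they came from separate infections, so p-values below measure the spread between these libraries.

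Total estimated counts ran from 53531257 to 70518401 per library. Estimated counts of PRMT5 itself were 9604, 8812 and 7966 with the control hairpin and 2502, 3188 and 2203 with the PRMT5 hairpin. Its level in CPM, counts scaled to a common library size, was 133 ± 8.90 against 43.2 ± 4.28 (SD, n = 3 each), so the PRMT5-shRNA mean was 32.6% of the NC-shRNA mean. The 6 epithelial markers, mostly keratins, summed to 1753 to 1879 CPM in NC-shRNA and to 1523 to 1650 CPM in PRMT5-shRNA, without overlap. KRT8 and EPCAM were each lower in every PRMT5-shRNA library, against 10.7% of all genes, with adjusted p-values of 0.251 and 0.575 (edgeR). The most abundant, KRT8, averaged 904 CPM in NC-shRNA and 772 CPM in PRMT5-shRNA. KRT18, KRT19, KRT7 and CDH1 overlapped between the groups, and only CDH1 had a log2 fold change above 0, at 0.45. The 5 lung adenocarcinoma markers, among them NKX2-1 and SFTPC, summed to at most 0.852 CPM. Among 10 endothelial markers, 5 were higher in every PRMT5-shRNA library than in any NC-shRNA library and 1 was lower, against 11.0% and 10.7% of all genes. The lower one, ESAM, was the most abundant of the 10, with means of 48.8 CPM in NC-shRNA and 41.5 CPM in PRMT5-shRNA. Of the 8 endothelial markers tested, 4 were higher past an unadjusted p under 0.05 and a fold over 1.5 (2.53% of all genes were), and VWF had an adjusted p of 0.0341 (edgeR; 0.0493% of all genes passed in that direction). VWF, KDR and CLEC14A were at 0 in all NC-shRNA libraries, and the most abundant of them in PRMT5-shRNA, VWF, reached 2.35 CPM.

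The fibroblast and leukocyte lists held no marker with an adjusted p under 0.05 (smallest 0.11 and 0.432, edgeR). Of 8 fibroblast markers, 2 were higher in every PRMT5-shRNA library, against 11.0% of all genes, and 0 were lower in every one. COL3A1 was at 7.95 ± 0.678 CPM in NC-shRNA and 14.5 ± 1.59 CPM in PRMT5-shRNA (SD, n = 3 each). PDGFRB was at 3.90 ± 0.419 and 5.80 ± 0.453 CPM (SD, n = 3 each). Their adjusted p-values were 0.11 and 0.231 (edgeR). The most abundant, DCN, overlapped between the groups, with means of 96.9 CPM in NC-shRNA and 82.0 CPM in PRMT5-shRNA. The summed fibroblast level was 117 to 142 CPM in NC-shRNA and 110 to 132 CPM in PRMT5-shRNA, with COL1A2 and PDGFRA at 0 in every library. Of 8 leukocyte markers, 1 was higher and 1 lower in every PRMT5-shRNA library, against 11.0% and 10.7% of all genes. The summed leukocyte level was 17.03 to 22.1 CPM in NC-shRNA and 16.2 to 19.0 CPM in PRMT5-shRNA, and CD3E was at 0 throughout.

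Cytokines of the IL-6 family signal through cell surface receptors that pair a shared chain, gp130 (encoded by IL6ST), with a second chain. LIFR joins gp130 to receive LIF and also takes part in the receptors for CLCF1, CNTF and oncostatin M. OSMR joins gp130 to receive oncostatin M, and IL6R and IL11RA are the binding chains for IL-6 and IL-11. Engaged receptors activate JAK kinases and STAT3, which enters the nucleus and switches on genes such as SOCS3, whose product binds gp130 and JAKs and dampens the signal. Tumour cells can both release these cytokines and respond to them.

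LIFR has several annotated starts, which the gene-level values cannot separate, so the 3 start windows that RefSeq gives for it on GRCh38.p14 are shown because the gene's difference could involve any of them. Each window runs from 250 bases before to 50 bases after a start, reads 5′ to 3′ on the minus strand, and carries in capitals any match to TTCNNNGAA, the letters that many STAT-bound sites contain.

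LIFR chr5:38556597-38556896: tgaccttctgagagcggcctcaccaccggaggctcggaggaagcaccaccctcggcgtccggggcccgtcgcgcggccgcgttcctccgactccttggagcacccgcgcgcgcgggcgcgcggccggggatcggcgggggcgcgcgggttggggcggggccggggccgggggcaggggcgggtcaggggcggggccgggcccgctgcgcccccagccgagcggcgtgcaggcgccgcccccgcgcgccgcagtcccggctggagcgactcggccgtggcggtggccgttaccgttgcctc

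LIFR chr5:38557418-38557717: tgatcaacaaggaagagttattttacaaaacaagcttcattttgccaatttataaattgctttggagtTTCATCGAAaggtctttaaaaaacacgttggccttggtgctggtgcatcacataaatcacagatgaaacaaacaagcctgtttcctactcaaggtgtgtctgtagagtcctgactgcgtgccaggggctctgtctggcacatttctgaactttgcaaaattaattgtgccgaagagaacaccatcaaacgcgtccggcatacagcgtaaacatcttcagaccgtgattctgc

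LIFR chr5:38595356-38595655: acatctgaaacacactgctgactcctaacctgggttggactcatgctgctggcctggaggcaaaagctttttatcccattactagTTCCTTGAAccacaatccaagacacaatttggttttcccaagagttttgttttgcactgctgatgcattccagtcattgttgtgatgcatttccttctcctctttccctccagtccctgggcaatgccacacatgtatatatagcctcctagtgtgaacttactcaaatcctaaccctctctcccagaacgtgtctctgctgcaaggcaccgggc

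The first window was very rich in G and C (81.7%) and held 51 CpG pairs. The second had 42.3% G and C with 9 CpG pairs, and the last 47.3% with 2, against medians of 58.7% and 14 over all 35116 windows of RefSeq genes. The second and last windows each held 1 match, TTCATCGAA starting at -182 and TTCCTTGAA starting at -165 from the start site. TTCNNNGAA, which reads the same on both strands and was searched on both, occurred in 7.66% of all windows and in 9.38% of the 27305 genes with a window. Among the members, 8 had windows, 12 in all, and LIFR, which had more windows than any other member, was the only one of the 8 with a match. The windows of LIFR, SOCS3, IL6 and IL11RA do not include the outermost start annotated for each gene in GENCODE 29. Those starts were not searched, so the lack of a match there says nothing about them. TTC and GAA with 1 more base between them occurred in 6.44% of all windows, and TGATGNAA, letters bound by pairs of ATF4 and a CEBP factor, in 3.62%. Both were searched on both strands and neither occurred in any of the 12 member windows. No window was given for LIF or CLCF1.

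LIFR was the member whose level differed most between the groups. The gene (ENSG00000113594) lies on chr5:38474963-38608354 of GRCh38, on the minus strand. Estimated counts of LIFR were 4757, 5032 and 5513 in NC-shRNA 1, 2 and 3, against 9564, 10617 and 10828 in PRMT5-shRNA 1, 2 and 3. In FPKM, a level per length of transcript and per sequencing depth, LIFR was at 4.77, 5.01 and 6.25 in NC-shRNA and at 12.6, 10.82 and 13.61 in PRMT5-shRNA. The lowest PRMT5-shRNA library was thus above the highest NC-shRNA library on each scale. Mean CPM was 77.4 ± 9.86 in NC-shRNA and 172 ± 18.5 in PRMT5-shRNA (SD, n = 3 each). The fitted log2 fold change was 1.15 (SE 0.117), a fold of 2.22, with a p of 0.0404 after Benjamini-Hochberg adjustment over 20295 genes tested (edgeR, quasi-likelihood test). LIFR stood in place 13 by p among the 14 genes with an adjusted p under 0.05, and the first gene beyond that threshold had 0.0557.

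The size of the LIFR difference held across the other ways of processing, while its place relative to the threshold did not. In 17 alternative fits its log2 fold change ran from 1.07 to 1.26. The adjusted p was under 0.05 in 8 of them and not in the other 9. When each of NC-shRNA 1, NC-shRNA 2 and PRMT5-shRNA 1, 2 and 3 was left out in turn, the adjusted p rose to between 0.0516 and 0.129, and without NC-shRNA 3 it was 0.0313. Some of the epithelial, endothelial and fibroblast markers named above did not overlap between the groups, in both directions. Only VWF of them had an adjusted p under 0.05 (edgeR), and the part of these markers in the LIFR difference was not tested. The summed endothelial level was 55.6 to 62.4 CPM in NC-shRNA and 57.3 to 62.1 CPM in PRMT5-shRNA. In these bulk samples, more cells that express a gene and more RNA per cell cannot be told apart.

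**Figure D1:**
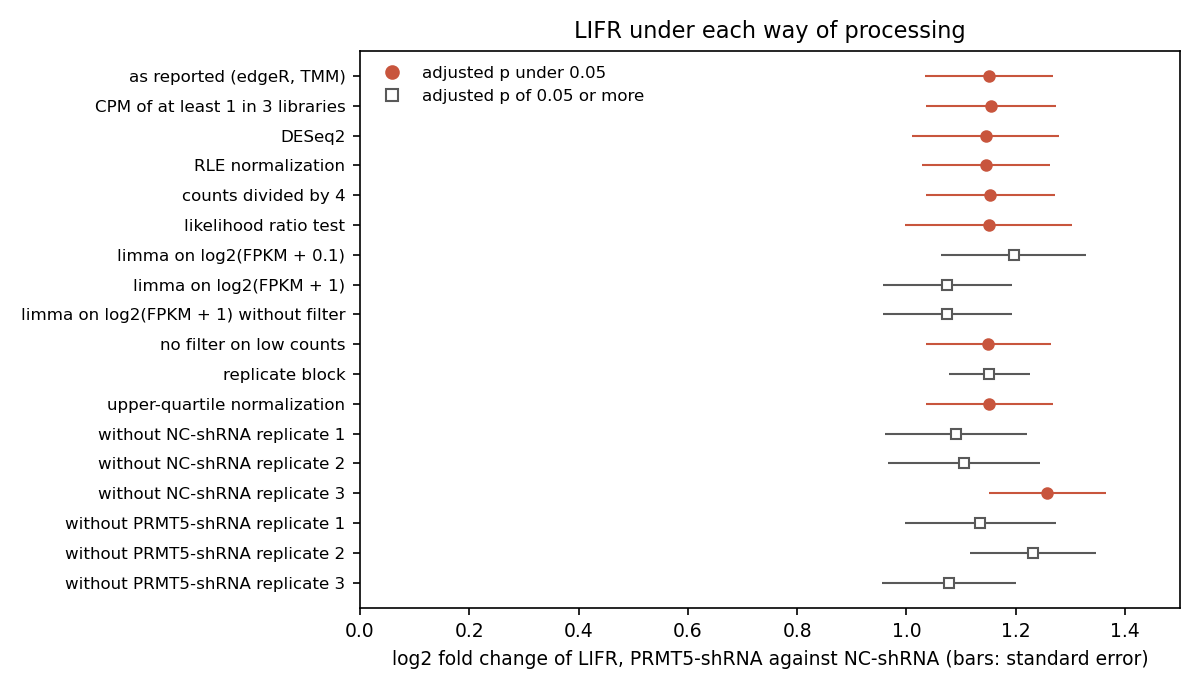
The log2 fold change of LIFR (horizontal axis, PRMT5-shRNA against NC-shRNA, bars: standard error) under each of 17 alternative fits and as reported (vertical axis). All estimates lie between 1.07 and 1.26, and filled circles mark the fits with an adjusted p under 0.05, which include only 1 of the 6 fits that leave a library out.

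IL6ST, which encodes the gp130 chain that LIFR, OSMR, IL6R and IL11RA work with, did not pass the test. The gene (ENSG00000134352) lies on chr5:55935095-55994993, minus strand. Its FPKM was 9.45, 11.82 and 12.11 in NC-shRNA and 13.87, 11.03 and 14.52 in PRMT5-shRNA, with PRMT5-shRNA 2 inside the control range. The fitted difference was 0.18 on the log2 scale (SE 0.124, adjusted p = 0.583, edgeR). Its annotated pseudogene copy IL6STP1 had between 0 and 9 estimated counts per library. Set against gp130 on the FPKM scale, LIFR stood at 0.505, 0.424 and 0.516 of the IL6ST level in NC-shRNA and at 0.908, 0.981 and 0.937 in PRMT5-shRNA. The mean ratio of LIFR to IL6ST was 0.482 ± 0.0503 and 0.942 ± 0.0365 (SD, n = 3 each), without overlap. Since IL6ST differed little, this ratio largely repeats the LIFR difference for which LIFR was selected. In PRMT5-shRNA the 2 chains came close to parity in FPKM, while mean CPM, not scaled by length, was 172 for LIFR and 152 for IL6ST.

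OSMR was the most abundant member in both groups. This gene (ENSG00000145623, chr5:38845858-38945596, plus strand) encodes the oncostatin M receptor chain. It starts 237.5 kb from the outermost annotated start of LIFR (chr5:38608354), which the windows shown above do not include. Its FPKM was 28.1, 32.16 and 32.62 in NC-shRNA and 38.39, 38.42 and 41.12 in PRMT5-shRNA, so every PRMT5-shRNA library exceeded every control. OSMR had a log2 fold change of 0.29 (SE 0.0635), a fold of 1.22, and did not pass (unadjusted p = 0.00287, adjusted p = 0.196, edgeR). DESeq2 gave 0.28 with an adjusted p of 0.0368. Over all genes DESeq2 passed 303 as higher and 227 as lower, against 10 and 4 by edgeR. LIFR amounted to 0.172 ± 0.0181 of the OSMR level in NC-shRNA and 0.314 ± 0.0277 in PRMT5-shRNA (SD, n = 3 each, FPKM). This ratio, too, largely repeats the LIFR difference.

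The cytokine-binding chains IL6R and IL11RA were the members with the lowest levels. IL6R (ENSG00000160712, chr1:154405193-154469450, plus strand) varied widely within each group, with FPKM of 2.07, 0.72 and 2.34 in NC-shRNA and of 2.56, 2.49 and 1.4 in PRMT5-shRNA. NC-shRNA 2, at 389 estimated counts, and PRMT5-shRNA 3, at 593, were low among libraries that otherwise held 1035 to 1299. The log2 fold change of IL6R was 0.27 with an SE of 0.439 (adjusted p = 0.834, edgeR), and it changed sign to -0.10 without NC-shRNA 2. IL11RA (ENSG00000137070, chr9:34650702-34661892, plus strand) had FPKM of 0.5, 0.55 and 0.46 in NC-shRNA and 0.5, 0.5 and 0.41 in PRMT5-shRNA. Its groups overlapped, with a log2 fold change of -0.14 (SE 0.182, adjusted p = 0.787, edgeR).

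**Figure D2:**
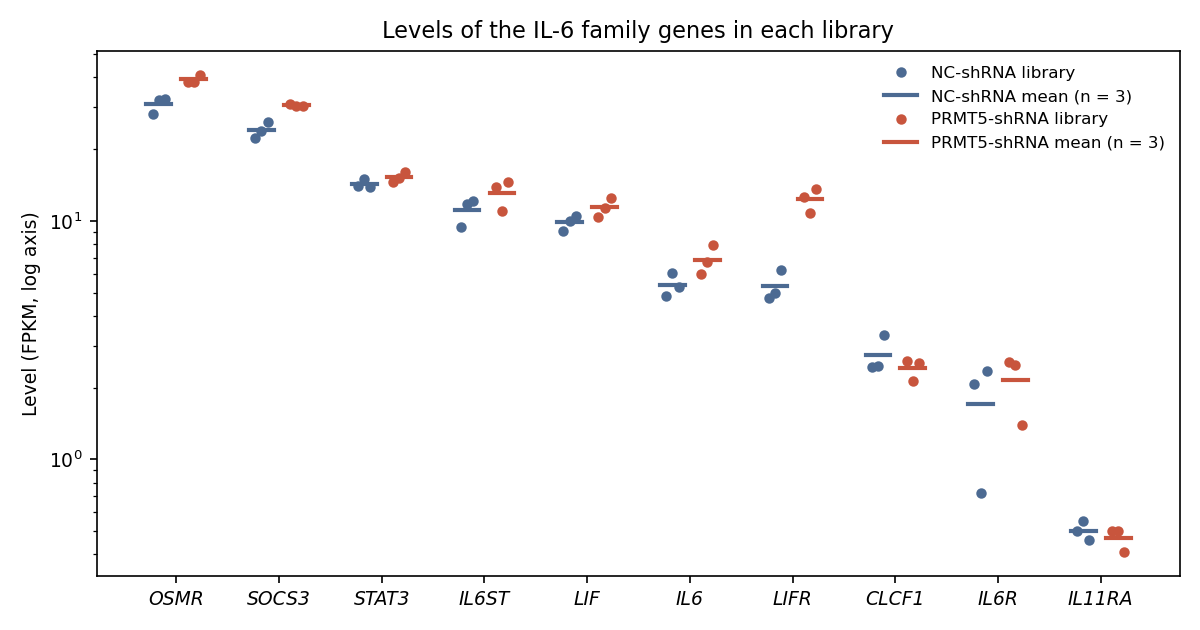
FPKM (vertical log axis) of the 10 members in each library, with points for libraries and bars for group means (n = 3 each), ordered by the NC-shRNA mean. LIFR shows the widest gap between groups, from a mean of 5.34 to 12.3 FPKM, and OSMR and SOCS3 show smaller gaps without overlap.

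All 3 cytokine genes had counts in every library, and their groups overlapped. LIF, the ligand of LIFR (ENSG00000128342, chr22:30240447-30246851, minus strand), had FPKM of 9.12, 10.04 and 10.5 in NC-shRNA and 10.37, 11.35 and 12.53 in PRMT5-shRNA, and PRMT5-shRNA 1 lay inside the control range. Its log2 fold change was 0.15 (SE 0.0884, adjusted p = 0.528, edgeR). IL6 (ENSG00000136244, chr7:22725884-22732002, plus strand) had FPKM of 4.86, 6.05 and 5.31 in NC-shRNA and 5.97, 6.74 and 7.92 in PRMT5-shRNA. Only PRMT5-shRNA 1 and NC-shRNA 2 crossed over. Its log2 fold change was 0.28 (SE 0.139, adjusted p = 0.441, edgeR). CLCF1, which signals through LIFR and gp130 together with CNTFR (ENSG00000175505, chr11:67364168-67374177, minus strand), had FPKM of 2.44, 2.46 and 3.32 in NC-shRNA and 2.58, 2.14 and 2.54 in PRMT5-shRNA. Its log2 fold change was -0.24 (SE 0.163, adjusted p = 0.583, edgeR), with NC-shRNA 3 the highest library and the others close together.

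STAT3 and SOCS3 stand inside the cell, the first as the transcription factor and the second as its target and brake. STAT3 RNA (ENSG00000168610, chr17:42313324-42388568, minus strand) had FPKM of 14.07, 14.98 and 13.84 in NC-shRNA and 14.63, 15.22 and 16.08 in PRMT5-shRNA. Its log2 fold change was 0.04 (SE 0.0638, adjusted p = 0.841, edgeR) and turned to -0.0013 without NC-shRNA 3. RNA levels say nothing of STAT3 phosphorylation, which is how the protein is switched on. SOCS3 (ENSG00000184557, chr17:78356778-78360077, minus strand) had FPKM of 22.23, 23.76 and 25.97 in NC-shRNA and 31.0, 30.24 and 30.47 in PRMT5-shRNA. Its groups did not overlap, and the PRMT5-shRNA libraries lay within 1 FPKM of each other. The log2 fold change of SOCS3 was 0.29 (SE 0.063), a fold of 1.22, and did not pass (unadjusted p = 0.00249, adjusted p = 0.196, edgeR), whereas DESeq2 gave 0.29 with an adjusted p of 0.0271. As given for OSMR, DESeq2 passed many more genes than edgeR did.

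By level in FPKM, the order in NC-shRNA was OSMR, SOCS3, STAT3, IL6ST, LIF, IL6, LIFR, CLCF1, IL6R and IL11RA. Neighbours in that order whose ranges overlapped were IL6ST with LIF and IL6 with LIFR. In PRMT5-shRNA the order was the same except that LIFR moved from place 7 to place 5, between IL6ST and LIF, and its range overlapped with both. CLCF1 and IL6R also overlapped there.

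All 10 members passed the filter on low counts. LIFR was the 1 member of 10 with an adjusted p under 0.05, where 0.0690% of all genes tested passed (0.0493% higher and 0.0197% lower in PRMT5-shRNA). LIFR alone also passed the looser pair of thresholds, an unadjusted p under 0.05 with a fold over 1.5, which 3.82% of all genes passed (2.53% higher and 1.29% lower). LIFR, OSMR and SOCS3 had an unadjusted p under 0.05, as did 12.8% of all genes, and were the 3 members whose groups did not overlap in CPM, all with PRMT5-shRNA higher, against 11.0% of all genes in that direction and 10.7% in the other. Of the members, 8 had a log2 fold change above 0, and 51.2% of all genes did. The median log2 fold change was 0.23 over the members, 0.18 without LIFR, and 0.0075 over all genes tested. Nothing is read from these counts, since the members were chosen with this comparison known.

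Several members share their locus with other annotated genes, and the counting is not stated to use strand. LIFR overlaps MIR3650 on its own strand and LIFR-AS1 on the other. IL11RA overlaps GALT and AL162231.3, and CLCF1 overlaps AP003419.1, on the same strand, so those low levels are uncertain. IL6ST, OSMR, IL6R, LIF and IL6 have overlapping genes on the other strand only, and SOCS3 and STAT3 have none. Of the further genes named below, SHC1, MCL1, C3, ITIH4, OSMR-AS1, DDIT3 and LSAMP are among those that overlap another gene on the same strand, and their values are uncertain to that extent.

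The rest of the pathway was read from 8 lists that hold 97 genes, of which 84 passed the filter and 7 were at 0 in every library. FGG was the 1 gene of the 84 with an adjusted p under 0.05, and none was lower. Over all genes, 0.0493% passed as higher and 0.0197% as lower. FGG, IL11, SERPINA1 and ITIH4 were the 4 past the looser thresholds, all higher, against 2.53% of all genes. In 22 of the 84 every PRMT5-shRNA library exceeded every NC-shRNA library, and in 7 every one was below, against 11.0% and 10.7% of all genes. The median log2 fold change over the 84 was 0.09, with 55 above 0 and 29 below, where 51.2% of all genes were above 0.

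**Figure D3:**
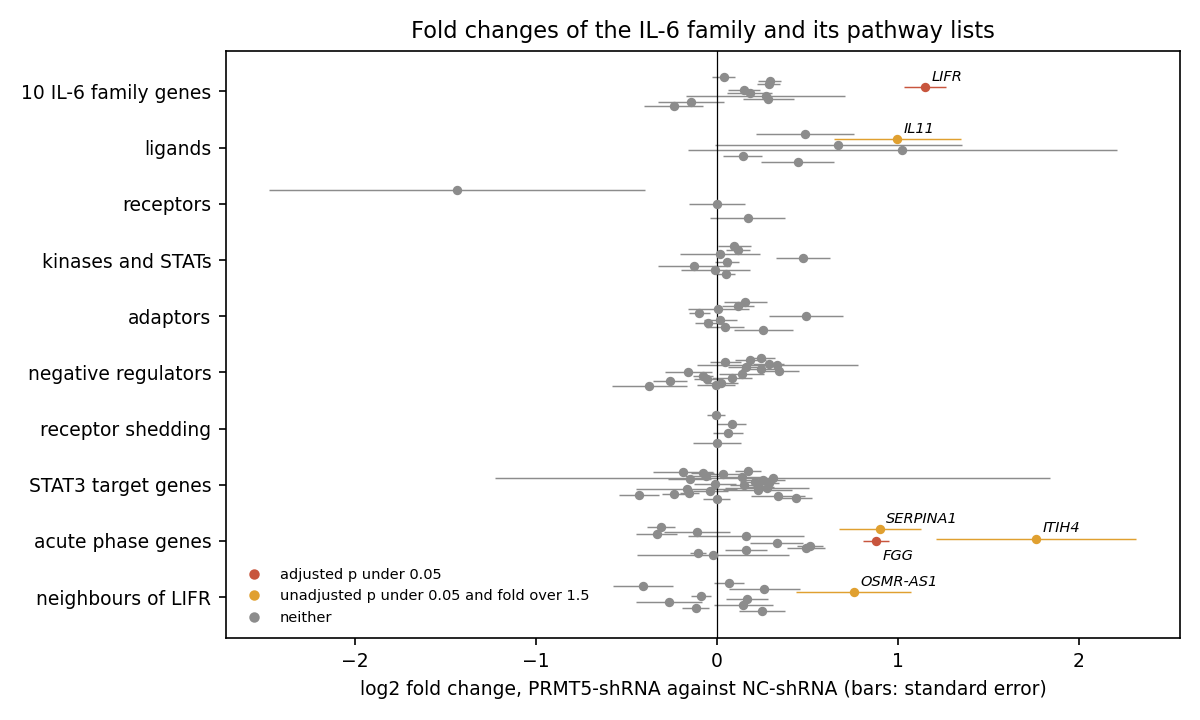
The log2 fold change (horizontal axis, PRMT5-shRNA against NC-shRNA, bars: standard error) of each gene tested in the members, the 8 pathway lists and the neighbours of LIFR (rows), with red points for an adjusted p under 0.05 and orange points for an unadjusted p under 0.05 and a fold over 1.5. LIFR at 1.15 and FGG at 0.88 are the red points, and most other genes lie near 0.

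Of the 8 other ligands, 6 were tested, all with a log2 fold change above 0 (51.2% of all genes had one), and 1 passed the looser thresholds (2.53% of all genes did, in this direction). IL11, the ligand of IL11RA, had 40, 70 and 30 estimated counts in NC-shRNA and 79, 77 and 94 in PRMT5-shRNA. Its log2 fold change was 0.996 (SE 0.35), with an unadjusted p of 0.025 and an adjusted p of 0.32 (edgeR), at levels of at most 0.53 FPKM. The looser call of IL11 was lost without NC-shRNA 1, NC-shRNA 3, PRMT5-shRNA 1 or PRMT5-shRNA 3. CNTF, a further ligand of receptors with LIFR, averaged 2.48 CPM in NC-shRNA and 3.38 CPM in PRMT5-shRNA (log2 fold change 0.45, adjusted p = 0.41, edgeR). CNTF shares its strand with the read-through gene ZFP91-CNTF.

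The other receptor chains and the kinases and STATs gave no gene past either pair of thresholds. The 3 further receptor genes were tested, and the most abundant, IL27RA and CNTFR, had log2 fold changes of 0.0013 (SE 0.155) and 0.17 (SE 0.208). CNTFR, the binding chain that works with LIFR and gp130, stayed at or below 0.87 FPKM. All 8 kinases and STATs were tested. JAK1, the principal kinase on gp130, had FPKM of 25.4, 27.03 and 25.37 in NC-shRNA and 28.09, 27.72 and 28.1 in PRMT5-shRNA, with a log2 fold change of 0.05 (SE 0.0535, adjusted p = 0.746, edgeR).

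The adaptors, feedback genes and shedding proteases gave no call either. Of 9 adaptors, the most abundant were SHC1 and PTPN11, which link gp130 to the RAS pathway, with log2 fold changes of 0.0082 (SE 0.166) and -0.10 (SE 0.0584). Of 19 negative regulators, 17 were tested, and 5 were higher and 1 was lower in every PRMT5-shRNA library, against 11.0% and 10.7% of all genes. The most abundant were the phosphatase gene PTPN1, at -0.08 (SE 0.0562), and RNF41, a ubiquitin ligase gene, at 0.24 (SE 0.109, adjusted p = 0.414, edgeR) without overlap between the groups. The 4 genes of receptor shedding had log2 fold changes between -0.0055 and 0.08, with NRDC at -0.0055 (SE 0.0506) and ADAM17, the protease that releases IL6R from the surface, at 0.06 (SE 0.0823).

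Of 25 genes taken as STAT3 targets, 24 were tested and none passed either pair of thresholds. Their median log2 fold change was 0.09, with 13 above 0 and 11 below, and in 7 every PRMT5-shRNA library was higher and in 3 lower, against 11.0% and 10.7% of all genes. MCL1, an anti-apoptotic BCL2 relative, had FPKM of 89.36, 94.12 and 98.89 in NC-shRNA and 105.03, 104.72 and 142.11 in PRMT5-shRNA. Its groups did not overlap, with a log2 fold change of 0.26 (SE 0.119, adjusted p = 0.42, edgeR). TIMP1, a metalloproteinase inhibitor gene, had a log2 fold change of -0.08 (SE 0.0655, adjusted p = 0.658, edgeR).

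Acute phase genes, the liver genes that IL-6 is best known for inducing, held 3 of the 4 further genes past the looser thresholds, which 2.53% of all genes passed in this direction. Of 21 listed, 13 were tested and 3 were at 0 in every library. In 5 of the 13 every PRMT5-shRNA library was higher and in 3 lower, against 11.0% and 10.7% of all genes. FGG, the gamma chain of fibrinogen, had FPKM of 10.07, 10.74 and 12.07 in NC-shRNA and 21.31, 20.36 and 21.31 in PRMT5-shRNA, with every PRMT5-shRNA library above the controls. Its log2 fold change was 0.88 (SE 0.0717, adjusted p = 0.0204, edgeR). The adjusted call of FGG was kept in 1 of the 6 fits that left a library out, the one without NC-shRNA 3. FGB, the fibrinogen beta chain, overlapped between the groups, at 0.33 (SE 0.145, adjusted p = 0.405, edgeR). SERPINA1, the alpha-1 antitrypsin gene, had 123, 120 and 123 estimated counts in NC-shRNA and 213, 277 and 143 in PRMT5-shRNA, with a log2 fold change of 0.90 (SE 0.224, unadjusted p = 0.00518, adjusted p = 0.223, edgeR). ITIH4 was low, with 9, 34 and 48 estimated counts in NC-shRNA and 76, 114 and 99 in PRMT5-shRNA, at 1.76 (SE 0.554, unadjusted p = 0.0156, adjusted p = 0.293, edgeR). C3, the complement gene and the most abundant of the list, lay lower in every PRMT5-shRNA library, from 909 ± 10.9 to 845 ± 13.8 CPM (SD, n = 3 each), with a log2 fold change of -0.11 (SE 0.044, adjusted p = 0.386, edgeR). The other 2 genes that were lower in every PRMT5-shRNA library, named after their values were seen, were SERPINA3, at -0.31 (SE 0.0764, adjusted p = 0.221, edgeR), and SAA1, at -0.33 (SE 0.115, adjusted p = 0.315, edgeR). The 5 that were higher in every one include FGG, SERPINA1 and ITIH4, and the rest of them are not described here. The smallest adjusted p in the list beyond FGG was 0.102 (edgeR), for a gene not described here.

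The genes around LIFR on chromosome 5 were compared because LIFR and OSMR lie near each other. Of 14 neighbours, 10 were tested and none had an adjusted p under 0.05. OSMR-AS1, an antisense transcript that starts beside OSMR, was the 1 neighbour past the looser thresholds (2.53% of all genes were, in this direction). It had 70, 86 and 49 estimated counts in NC-shRNA and 101, 80 and 127 in PRMT5-shRNA, which overlapped, and its log2 fold change was 0.76 (SE 0.318, adjusted p = 0.388, edgeR). LIFR-AS1, which overlaps LIFR on the other strand, averaged 3.38 CPM in NC-shRNA and 2.81 CPM in PRMT5-shRNA, with a log2 fold change of -0.27 (SE 0.183, adjusted p = 0.585, edgeR). The most abundant neighbours, DAB2 and NUP155, were at -0.12 (SE 0.0739) and -0.09 (SE 0.0558). No neighbour was higher in every PRMT5-shRNA library, and NUP155 and SLC1A3, the latter at -0.41 (SE 0.167, adjusted p = 0.377, edgeR), were lower in every one, against 11.0% and 10.7% of all genes. LIFR-AS1 and SLC1A3 were singled out after their values were seen.

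**Figure D4:**
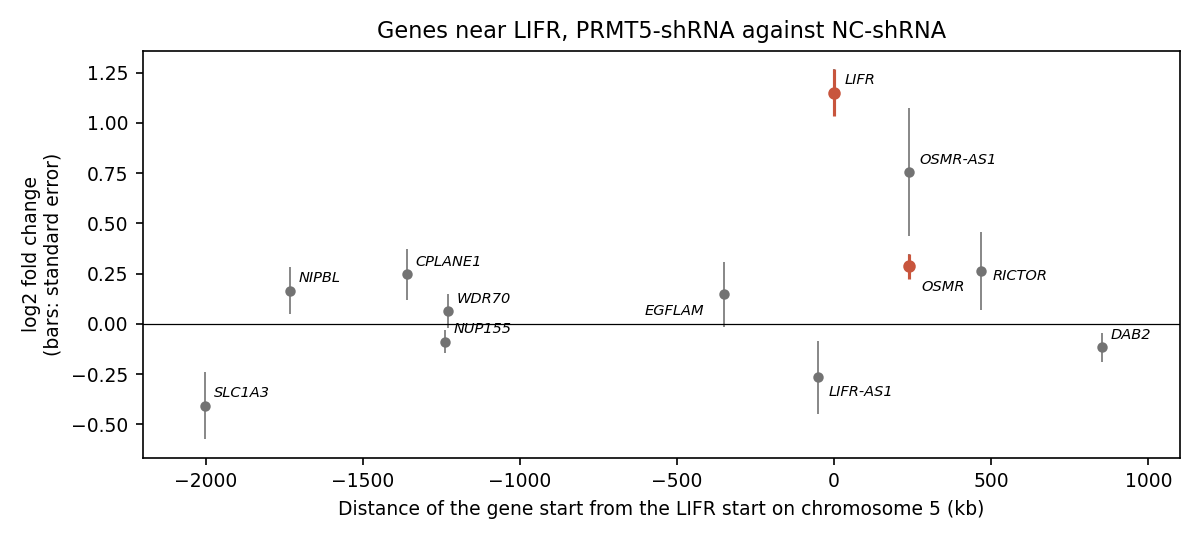
The log2 fold change (vertical axis, PRMT5-shRNA against NC-shRNA, bars: standard error) of LIFR, OSMR and the 10 tested neighbours against the distance of each gene's start from the outermost annotated start of LIFR in kb (horizontal axis). LIFR, in red at distance 0, stands at 1.15, OSMR, in red, at 0.29, and the neighbours between -0.41 and 0.76.

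The genes whose level followed that of LIFR most closely were found by centring each gene's log2 CPM on its own mean over the 6 libraries and taking the root mean square difference from the LIFR profile. Of 15625 genes with a mean of at least 50 counts, the 5 closest were LSAMP (0.0433), ADORA2A-AS1 (0.0978), DDIT3 (0.111), SV2B (0.115) and NUPR1 (0.147). They were picked for resembling LIFR over the same libraries, so each was higher in PRMT5-shRNA by construction. DDIT3, which encodes the stress-induced transcription factor CHOP, had 1006, 1182 and 1175 estimated counts in NC-shRNA and 2202, 2836 and 2443 in PRMT5-shRNA. NUPR1, a gene of the stress response, had 726, 813 and 758 against 1183, 1777 and 1542. LSAMP, ADORA2A-AS1 and SV2B were low, at up to 0.23, 0.34 and 0.34 FPKM. LIFR's partner chains were farther from its profile, at 0.447 for OSMR and 0.496 for IL6ST, and SOCS3 was the nearest of the other members at 0.443. In the order of the 15625 genes SOCS3 stood at place 1079, OSMR at 1133 and IL6ST at 2155. The profiles were not scaled, so a smaller fold change by itself adds to this difference.

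**Figure D5:**
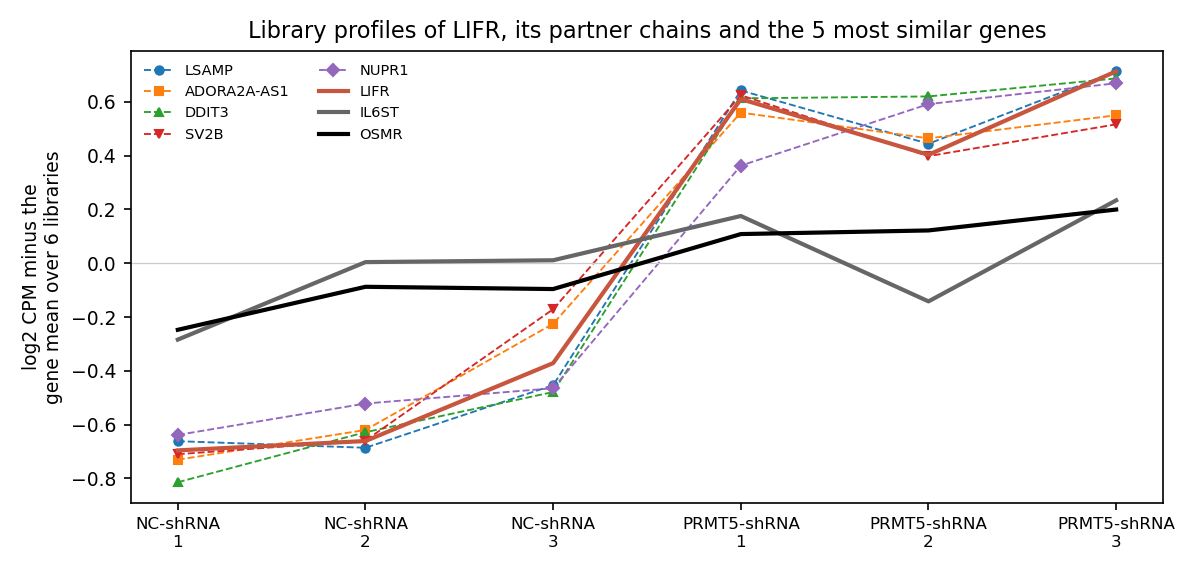
Log2 CPM minus each gene's own mean over the 6 libraries (vertical axis) in each library (horizontal axis; lines only join the points of 1 gene) for LIFR, its partner chains IL6ST and OSMR, and the 5 genes most like LIFR. LIFR runs from -0.70 in NC-shRNA 1 to 0.71 in PRMT5-shRNA 3, while IL6ST and OSMR stay between -0.28 and 0.23.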

How the data were processed

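Members are the 10 genes named at the start, matched by gene name and gene ID. The members, gene lists and tests were chosen with earlier results of these data known. The submitters' processing notes name cutadapt 1.9, HISAT2 2.0.4, StringTie 1.3.4d and GRCh38, whereas the methods text writes GRCm38 for the genome, and genes in the files are human. The authors deposited estimated counts per gene (whole numbers, not normalized) and FPKM values (per transcript length and library size). Exactly 4 estimated counts were given to 1214 to 1319 genes per library and exactly 3 or 5 to 283 to 546, so small values are not numbers of fragments. How strand and overlapping genes were handled is not given in the sources used here.

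Counts were normalized by TMM and filtered with filterByExpr, leaving 20295 of 58825 genes, and tested with the quasi-likelihood test of edgeR 4.0.16 (R 4.3.3) with Benjamini-Hochberg adjustment over all of them. Standard errors were derived from the F statistic. CPM uses TMM library sizes, and log2 CPM a prior count of 2. Alternatives were RLE and upper-quartile factors, DESeq2 1.42.0, the likelihood ratio test, other filters, counts divided by 4, limma 3.58.1 on log2(FPKM + 1) or log2(FPKM + 0.1) with a mean FPKM of at least 0.5 or no filter, the replicate number as a block, and each library left out. Fits were tested on simulated data first. Named genes are the members, listed genes past either pair of thresholds, the 2 highest in mean FPKM per list, and the 5 most like LIFR; some that the rule names are not reported here. Libraries of a group differed from each other (lowest chi-square per degree of freedom 39.6). That value treats the estimated counts as numbers of fragments, so it cannot be set against sampling noise. Gene positions and overlaps came from GENCODE 29, and start windows from RefSeq (GRCh38.p14). The neighbour listed under its older name C5orf42 was matched as CPLANE1 through RefSeq synonyms.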

Additional observations from a re-analysis of the deposited data

How the results depend on the processing

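LIFR kept its direction in all 17 alternatives. It was past an adjusted p of 0.05 with CPM of at least 1, RLE, upper-quartile factors, no count filter, counts divided by 4, the likelihood ratio test and DESeq2, and not with limma on log2(FPKM + 1) (1.07, adjusted p = 0.0634), the same without a filter (1.07, 0.11) or log2(FPKM + 0.1) (1.20, 0.0583). With 1 library left out its log2 fold change ran from 1.08 to 1.26. Of the other members, IL6R turned to -0.10 without NC-shRNA 2 and STAT3 to -0.0013 without NC-shRNA 3 (ranges with a library left out -0.10 to 0.53 and -0.0013 to 0.071), OSMR and SOCS3 passed by DESeq2 only, and the remaining comparisons kept their direction and their side of the threshold. IL11RA was below the FPKM filter and had no value in those 2 limma fits.

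Members with an adjusted p under 0.05 numbered 3 by DESeq2 (LIFR, OSMR, SOCS3), 0 in each limma fit and 0 to 1 with a library left out. Pathway genes higher numbered 6 by DESeq2 (BCL3, CP, FGA, FGG, JUNB, SERPINA1), 2 by the likelihood ratio test (FGA, FGG), 0 by limma without a filter and 0 to 1 with a library left out (0 in 5 of the 6 fits), and 2 were lower by DESeq2 (BIRC5, SERPINA3). These genes were named after their values were seen. At the looser thresholds each limma fit called 1 pathway gene, FGG, and IL11 was also lost with the block. OSMR-AS1 lost its looser call, leaving 0 neighbours, with CPM of at least 1, DESeq2, RLE, counts divided by 4, the likelihood ratio test, each limma fit and the block, and 0 to 1 were called with a library left out. Without a count filter and without PRMT5-shRNA 3 the 1 neighbour called was GDNF, so OSMR-AS1 kept its call with upper-quartile factors, without NC-shRNA 2 and without PRMT5-shRNA 2. No neighbour was lower at these thresholds, but without PRMT5-shRNA 2 there was 1, FYB1 (range 0 to 1). Over all genes, adjusted calls were 303 higher and 227 lower by DESeq2, 119 and 65 by the likelihood ratio test, 1 higher by limma without a filter, and 4 to 16 higher and 3 to 10 lower with a library left out. Looser calls were 332 higher and 164 lower with CPM of at least 1, 305 and 132 by limma on log2(FPKM + 0.1), 94 and 58 on log2(FPKM + 1), and 91 and 61 without a filter. The cause of these shifts was not tested.

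Deviations of same-numbered libraries from their group means correlated at 0.0012, -0.0388 and 0.064 over 10487 genes, so this check gave little sign of pairing by number. Libraries with different numbers were not compared in it. With the replicate number as a block, LIFR was at 1.15 (adjusted p = 0.157), and 0 members, 0 pathway genes and 0 genes in either direction had an adjusted p under 0.05, while 2382 genes had an unadjusted p under 0.05.

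With 3 libraries per group, precision was low for IL6R (SE 0.439) and for ITIH4 (SE 0.554). An exact permutation test was not used, since 3 against 3 libraries cannot reach a two-sided p under 0.05.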

Other observations

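MYC, a gene on the list of STAT3 targets that was singled out after its values were seen, took 2 widely separate levels that did not follow the groups. Its estimated counts were 893, 16102 and 961 in NC-shRNA 1, 2 and 3 and 813, 756 and 17121 in PRMT5-shRNA 1, 2 and 3. In FPKM, NC-shRNA 2 stood at 42.52 and PRMT5-shRNA 3 at 57.1, whereas the other 4 libraries lay between 2.04 and 2.88. The 2 libraries with high MYC were those with the lowest IL6R, at 0.72 and 1.4 FPKM against 2.07 to 2.56 in the other 4. The log2 fold change of MYC between the groups was 0.31 with an SE of 1.53 (adjusted p = 0.955, edgeR).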
